A study of Mus musculus with 3 samples.

Results

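The 38 genes described here are cell cycle genes, and they were taken as a fixed list from the 20207 genes present in the tables of both libraries. The list has 22 mitotic genes, most of whose transcripts peak in G2 and mitosis, and 16 S-phase genes, whose products copy DNA or serve its copying and upkeep. Stmn1 was grouped with the mitotic genes by its place in the list. All 38 had unique molecular identifiers (UMIs, 1 for each captured transcript) in both libraries. A cell with at least 3 UMIs of the list is called list-positive below, and a cell with none is called a zero cell.

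Liver non-parenchymal cells (NPCs) of mice were captured with the BD Rhapsody system, and their transcripts were sequenced as 1 library per diet, the normal chow diet (NCD) and the high-fat, high-cholesterol (HFHC) diet. The NCD library holds wild-type C57BL/6 J mice and was matched by elimination: the title of its sample reads MCD, APAP0h is the library name in the header of its file, and no diet can be read from the values. The HFHC library, called the HFHC pool, mixes cells of wild-type and Chi3l1-/- mice after 16 weeks of diet, and the genotype of a cell is not known. Chi3l1-/- mice lack the gene in all cells. Age and sex of the mice are not in the labels, and the number of animals in each library is not given in the sources used here. The protocol in the labels names parenchymal cells whereas the methods of the study describe NPCs, and hepatocytes, the parenchymal cells, made up 15.8% (NCD) and 45.5% (pool) of the cells kept. With 1 library per diet there was no test between diets and no p-value. Diet cannot be told apart from capture, library or the Chi3l1-/- genotype of part of the pool. Intervals below are 95% intervals that cover counting error only.

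A dividing cell first licenses and copies its genome in S phase and then separates the copies in mitosis. The S-phase genes are switched on by E2F transcription factors as a cell leaves G1, and the mitotic genes follow later, many of them through a CHR element, which MuvB complexes bind, and CCAAT boxes, which NF-Y binds. Most cells of a resting liver are outside the cycle, while Kupffer cells (KCs), the resident macrophages of the liver, maintain their numbers by dividing in place.

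The promoters of the list differ along this line, and 4 of them are printed to show the words searched for. Promoter sequences of 32 of the 38 members were found in RefSeq (GRCm38.p6), each from 250 bases before to 50 after the gene's start. Both strands were searched for the CHR word TTTGAA, for CCAAT, and for the E2F words TTTCCCGC, TTTCGCGC, TTTGCCGC and TTTGGCGC. The CHR word stood in 13 of 18 mitotic promoters and in 1 of 14 S-phase promoters, beside 18.1% of 27025 promoters. An E2F word stood in 7 of 14 S-phase promoters and 1 of 18 mitotic ones, beside 2.32% of all. CCAAT was common to both kinds, in 15 of 18 mitotic and 11 of 14 S-phase promoters, beside 37.9% of all. The 160 bases before the start are shown 5′ to 3′ on the strand of the gene for Top2a (chr11:99024190-99024349, minus strand), Mki67 (chr7:135716380-135716539, minus strand), Pcna (chr2:132253181-132253340, minus strand) and Mcm6 (chr1:128359706-128359865, minus strand). Capitals mark any of the searched words on either strand, and in Mcm6 the words of both strands overlap at one place.
Top2a: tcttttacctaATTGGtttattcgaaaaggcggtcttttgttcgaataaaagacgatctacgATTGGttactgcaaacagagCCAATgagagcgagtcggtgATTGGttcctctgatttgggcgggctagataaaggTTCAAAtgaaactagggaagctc
Mki67: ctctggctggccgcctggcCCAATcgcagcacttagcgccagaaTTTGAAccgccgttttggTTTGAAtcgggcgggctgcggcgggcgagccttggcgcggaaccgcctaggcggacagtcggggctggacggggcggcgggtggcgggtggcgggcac
Pcna: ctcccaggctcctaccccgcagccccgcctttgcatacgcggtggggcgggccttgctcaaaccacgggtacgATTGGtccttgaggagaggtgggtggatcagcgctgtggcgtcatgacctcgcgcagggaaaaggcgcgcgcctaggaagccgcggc
Mcm6: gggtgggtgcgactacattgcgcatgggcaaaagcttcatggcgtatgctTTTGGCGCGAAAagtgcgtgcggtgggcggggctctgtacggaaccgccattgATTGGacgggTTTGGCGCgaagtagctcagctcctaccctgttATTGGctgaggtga
Top2a and Mki67, the mitotic pair, hold CHR words and no E2F word in these bases. Mcm6 holds E2F words and no CHR word, and Pcna holds CCAAT alone. These are matches of letters and not tested sites.

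Before filtering there were 30734 NCD cells with 53720863 UMIs in all and 21601 pool cells with 71981673. Cells with 200 to 4000 detected genes and at most 25% mitochondrial UMIs were kept, which left 23346 and 19625 cells with medians of 1322.5 and 1622 UMIs. The 2 libraries shared 756 cell indices, and a shared index does not show that a cell is shared. Cell types were clusters named from marker genes, made with all listed cell cycle genes left out of the features. One cluster of 161 NCD and 906 pool cells scored for T cells but was led by Gzmk, Cd8b1, Ccl5 and Nkg7 and stayed unnamed, and it is called the Gzmk-led cluster. Because deeper cells reach 3 UMIs more easily, each cell was thinned at random to 2000 UMIs and shallower cells were left out. The share without thinning is given where it differs much.

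Conventional dendritic cells and lymphocytes carried the list most often, and resident macrophages rarely did. Type 1 conventional dendritic cells (cDC1s), which cross-present antigen, had the highest share of list-positive cells in both libraries, at 30.9% (71 of 230 cells, 25 to 37.3%) in the NCD library and 22.1% (31 of 140, 15.6 to 29.9%) in the HFHC pool. The Gzmk-led cluster had 25% (26 of 104) and 18.8% (163 of 868). T cells had 18.2% (217 of 1194, 16 to 20.5%) and 14.8% (226 of 1531, 13 to 16.6%). Natural killer (NK) cells had 17.1% (33 of 193) and 14.9% (76 of 511). Type 2 conventional dendritic cells (cDC2s) had 19.4% (41 of 211) and 13.2% (23 of 174). Plasma cells were few, with 7 of 46 positive (15.2%) and 19 of 88 (21.6%), the next share after cDC1s in the pool. Scrublet, a doublet caller, called 41.2% of NCD and 10.2% of pool plasma cells doublets, and 14.3% and 5.26% of the positive ones. With cell cycle genes kept in the clustering, the cluster that scored 5.92 for plasma cells scored 4.1 for T cell markers. The plasma cell share is therefore uncertain. Of basophils 13 of 103 and 12 of 80 were positive, but their cluster scored 7.01 for basophil and 3.28 for pDC markers. In the clustering without an upper limit on genes, the cluster that scored for basophils was led by Elane. It held markers of several types and stayed without a name, so that the basophil share is uncertain. B cells had 10.3% (15 of 145) and 12.9% (89 of 689).

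KCs had 5.14% (120 of 2335, 4.28 to 6.11%) in the NCD library and 5.71% (23 of 403, 3.65 to 8.44%) in the HFHC pool, and these intervals overlap widely. Endothelial cells were at a like level, with 5.96% (84 of 1410) and 4.55% (28 of 615). Monocyte-derived macrophages (MoMFs) were too few to place, with 8 of 65 cells (12.3%) and 4 of 105 (3.81%). Monocytes had 3.05% (12 of 394) and 1.90% (11 of 580), and plasmacytoid dendritic cells (pDCs) 1.55% and 3.09%. Stellate cells had 2 of 35 and 0 of 10.

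Cell types that should hold few dividing cells were set beside these shares. Neutrophils, which do not divide after leaving the bone marrow, had 3.23% (3 of 93, up to 9.14%) and 1.46% (3 of 206, up to 4.20%). Hepatocytes had 1.68% (5 of 297, up to 3.88%) and 1.49% (31 of 2079, 1.02 to 2.11%). Of the 31 positive pool hepatocytes, 25 had both S-phase and mitotic UMIs and 10 had at least 10 UMIs of the list. Of the 3 positive NCD neutrophils, 2 had at least 10. Whether these cells hold free RNA, stray transcripts, a second cell or their own cycling transcripts was not tested. The KC intervals lie above those of hepatocytes in both libraries and overlap those of neutrophils. The shares of monocytes in both libraries and of NCD pDCs lie within the hepatocyte intervals. Only 2.96% of the neutrophils of the NCD library reached 2000 UMIs, and 66.7% of its 3 positive neutrophils were called doublets by Scrublet. Resting B cells had been meant as a further low type, but their share at 2000 UMIs was not low. Only 10.8% of NCD B cells reached that depth. Without thinning 55 of 1345 NCD and 187 of 825 pool B cells were list-positive.

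Depth and clustering moved these shares strongly. Without thinning, list-positive KCs made up 20.6% and 37.5%, T cells 14.0% and 30.2%, cDC1s 49.1% and 66.0%, and neutrophils 0.286% and 3.25%. The median KC held 4407 UMIs (NCD) and 8817.5 UMIs (HFHC pool), against 1827 and 3304 in T cells. Without Stmn1 and Pcna, the members with many UMIs outside cycling cells, the thinned KC shares were 3.21% and 4.22%. With cell cycle genes kept in the clustering, the T cell shares were 12.6% and 14.3%, so that the order of the libraries turned, and 25 of the 41 positive cDC2s of the NCD library joined the cDC1s. The cDC1 shares were then 37.8% and 27.5%, those of cDC2s 8.95% and 8.72%, and those of KCs 5.09% and 5.99%. In the unthinned counts KCs stood above T cells in both libraries, and in thinned cells T cells stood above KCs in both.

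**Figure D1:**
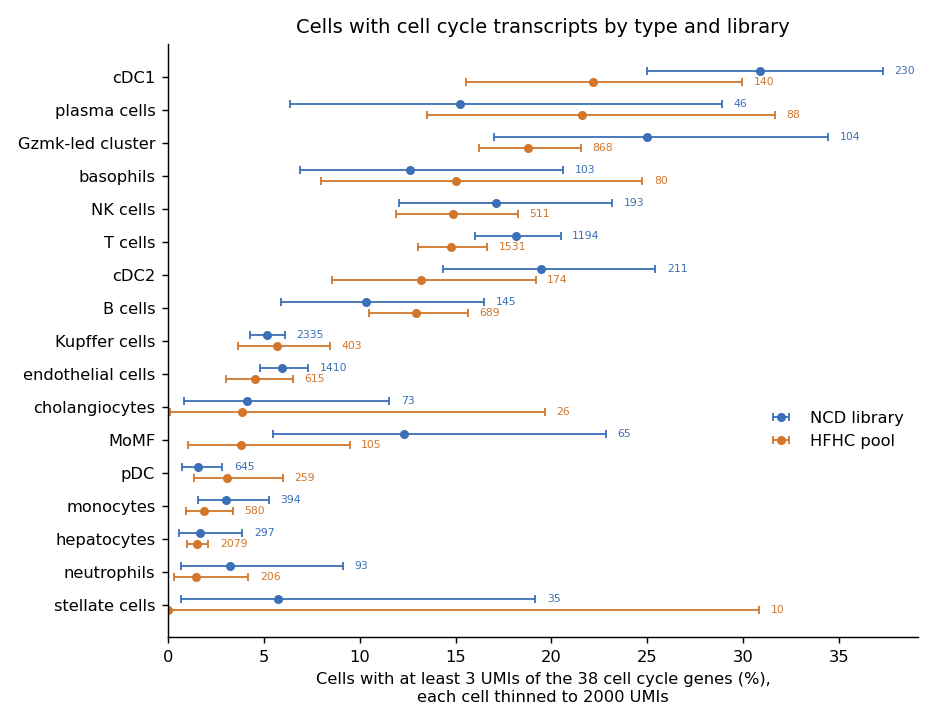
Share of cells with at least 3 UMIs of the 38 cell cycle genes in each cell type (percent, x axis) in the NCD library (blue) and the HFHC pool (orange), each cell thinned to 2000 UMIs. Points are shares, bars exact binomial 95% intervals and small figures the number of cells. The cDC1 shares of 30.9% and 22.1% are the highest, and neutrophils and hepatocytes stay between 1.46% and 3.23%.

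Summed over all kept cells of a type, the list had 3176 CPM (UMIs per 1000000 UMIs of the type) in NCD cDC1s and 1490 in those of the HFHC pool. It had 2747 and 1383 CPM in cDC2s, 2107 and 1360 in T cells, and 1670 and 1516 in NK cells. KCs had 430 and 381 CPM, endothelial cells 476 and 508, hepatocytes 139 and 212, and neutrophils 115 and 154. Among the 12 cell types with at least 100 cells in each library, 25 of 38 members had their highest CPM in cDC1s in the NCD library. A further 7 members were highest in the Gzmk-led cluster, 5 in cDC2s and 1 in B cells. In the HFHC pool the top places were spread wider, with 15 members highest in cDC2s, 7 in cDC1s, 6 in NK cells and 5 in the Gzmk-led cluster. The share of all genes that are highest in each type is not given here, so that these counts are descriptions. CPM values below compare 1 gene between cell types, since levels of different genes also depend on their length and capture.

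Mki67, the proliferation antigen Ki-67 that coats mitotic chromosomes, had 242 CPM in NCD cDC1s, 197 in cDC2s and 151 in T cells, against 17.3 in KCs, 7.03 in neutrophils and 4.75 in hepatocytes. In the HFHC pool it had 131 CPM in cDC1s, 134 in cDC2s, 109 in T cells and 31.7 in KCs. Top2a, the topoisomerase that untangles replicated DNA, ran from 363 CPM in cDC1s to 3.35 in hepatocytes in the NCD library, with 17.1 in KCs. In the HFHC pool NK cells led with 163 CPM of Top2a, and KCs had 8.22 CPM from 34 UMIs. These markers thus ranked conventional dendritic, T and NK cells far above KCs in both libraries, whereas NCD B cells, with 18.6 CPM of Mki67, were level with KCs. Plasma cells, too few for the ranking above, had 266 (NCD) and 296 (pool) CPM of Mki67.

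The engine of mitotic entry is Cdk1, the kinase, with its partners cyclin A2 and cyclins B1 and B2. Cdk1 had 74.6 CPM in NCD cDC1s, 37.7 in T cells and 16.4 in KCs, and in the HFHC pool 26.4, 15.7 and 12.3. Its cyclins were rarer in KCs. Ccnb1 had 42.3 CPM in NCD cDC1s and 1.09 in KCs (16 UMIs), and Ccna2 121 and 3.63. Ccna2 and Ccnb1 had 0 UMIs in NCD monocytes, whose 469 cells gave 451 UMIs of the list, so that a count of 0 allows up to 3 UMIs of either gene. The anaphase genes Cdc20, an activator of the ubiquitin ligase that starts chromosome separation, and Ube2c, its conjugating enzyme, had 33.5 and 203 CPM in NCD cDC1s and 0.753 and 5.95 in KCs.

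Among the mitotic kinases, Aurka had 15.2 CPM in NCD cDC1s and 1.09 in KCs, Plk1 38.5 and 1.51, and Aurkb 30.3 and 3.97. Aurkb was highest in cDC2s in both libraries, at 34.7 and 18.3 CPM. Birc5, the survivin subunit that carries Aurora B to chromosomes, had 125 CPM in NCD cDC1s, 114 in the Gzmk-led cluster, 62.2 in T cells and 4.58 in KCs. The checkpoint kinases Bub1 and Bub1b were highest in NCD cDC1s with 36.6 and 20.8 CPM, and in the HFHC pool in cDC2s with 19.03 and 10.7.

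Genes of the kinetochore and spindle followed the same order of types. Cenpe, a kinetochore motor, had 95.4 CPM in NCD cDC1s, 39.6 in T cells and 5.06 in KCs, and Cenpf 79.0, 31.8 and 2.87. The spindle genes Hmmr, Tpx2, Nusap1 and Kif11 had between 43.0 and 75.8 CPM in NCD cDC1s and between 1.37 and 3.63 in KCs. Hmmr had 0 UMIs in NCD monocytes, neutrophils and hepatocytes, which allows up to 3 UMIs in each. Kif20b, a kinesin of cell division, was less particular, with 25.9 CPM in NCD B cells and 37.1 in those of the HFHC pool, next to 38.2 in the Gzmk-led cluster. Stmn1, which destabilises microtubules and is also made outside mitosis, was the mitotic member with most UMIs in KCs of the NCD library, at 333 UMIs and 22.8 CPM. It had 14.2 CPM in NCD hepatocytes and 27.2 in those of the pool.

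The S-phase members were spread over more cell types. Pcna, the sliding clamp of DNA polymerase, was found everywhere, from 24.0 CPM in neutrophils to 226 in cDC2s in the NCD library and from 41.9 in hepatocytes to 180 in the Gzmk-led cluster in the HFHC pool. KCs had 123 and 113 CPM of Pcna, B cells 120 and 136, monocytes 108 and 110. Pclaf, a PCNA-binding factor, had a steeper order, with 223 CPM in NCD cDC1s, 153 in T cells and 9.03 in KCs. Of the 6 subunits of the MCM helicase, which unwinds DNA, Mcm2, Mcm3, Mcm4 and Mcm6 were highest in the Gzmk-led cluster in the NCD library, with 135 CPM of Mcm6. Mcm5 was highest in cDC1s with 94.1 CPM and Mcm7 in cDC2s with 55.9. Mcm3 was high in NCD endothelial cells, at 62.6 CPM beside 66.5 in cDC2s and 60.02 in cDC1s, and in the HFHC pool endothelial cells had 38.8.

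The helicase loader Cdt1 was the 1 member highest in B cells in both libraries, at 73.0 and 55.9 CPM, beside 50.5 and 35.8 in T cells and 12.2 and 8.46 in KCs. Its partner Cdc6 had 19.3 CPM in NCD cDC2s and 3.08 in KCs. Gins2, a part of the active helicase, gave at most 59 UMIs in any type of the NCD library, in KCs, and its first place in pool neutrophils rests on 3 UMIs. For nucleotide supply, Rrm2, the regulated subunit of ribonucleotide reductase, had 87.4 CPM in the NCD Gzmk-led cluster, 74.8 in T cells and 3.97 in KCs, while the constant subunit Rrm1 had 41.5, 44.1 and 16.3. Tyms, thymidylate synthase, had 30.3 CPM in NCD cDC1s, 10.9 in hepatocytes and 8.76 in KCs. Uhrf1, which helps to copy DNA methylation onto the new strand, had 65.5 CPM in the NCD Gzmk-led cluster and 41.7 in T cells. It had 7.32 CPM in KCs and 0.279 in hepatocytes from 1 UMI. Rad51ap1, a factor of recombination repair, stayed at or below 12.6 CPM in every one of these 12 types of the NCD library.

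**Figure D2:**
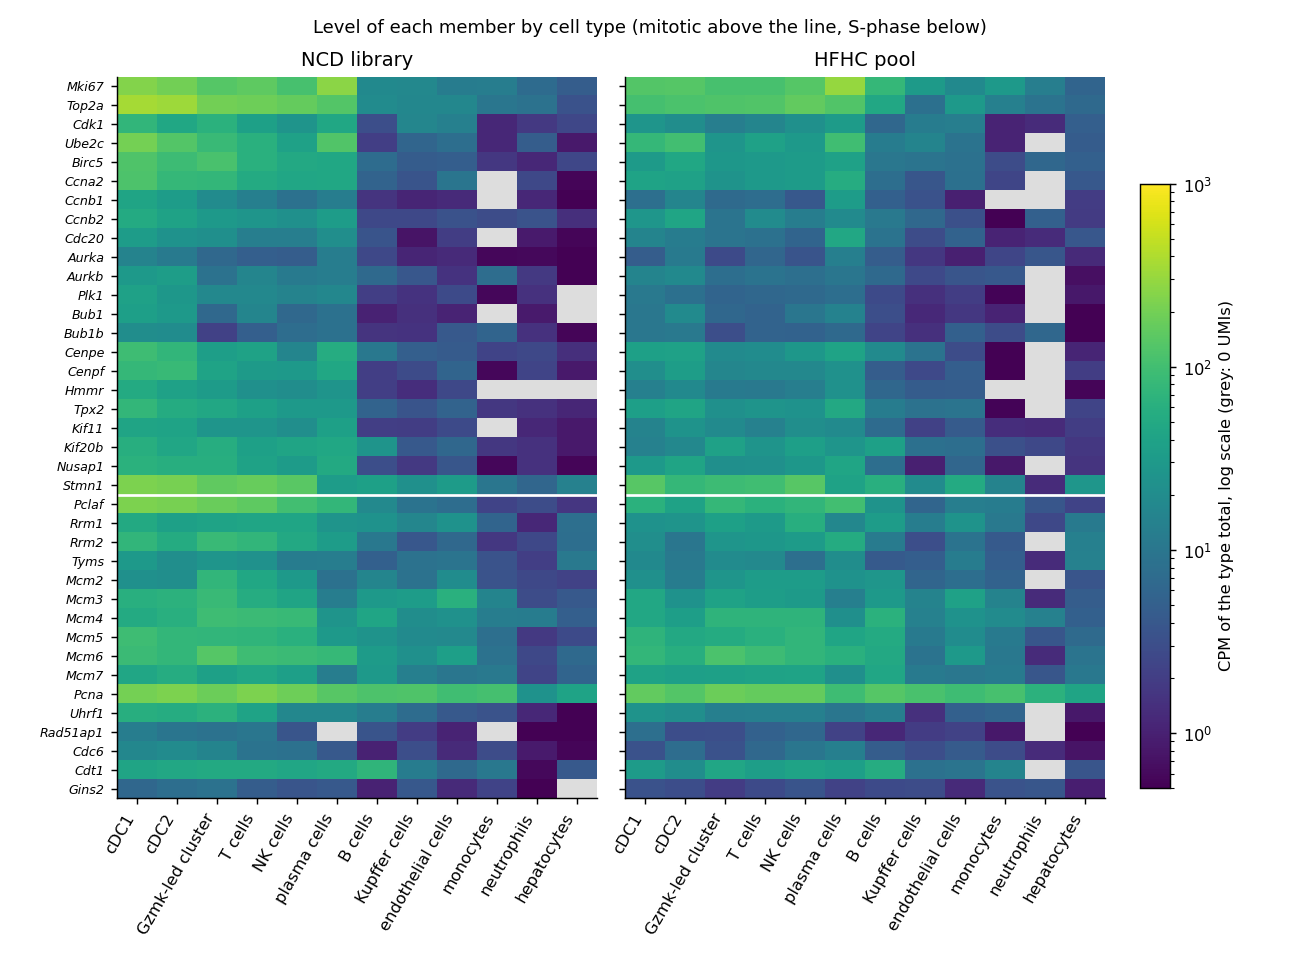
Level of each member (rows; mitotic genes above the white line, S-phase genes below) in 12 cell types (columns; plasma cells are shown and pDCs are not) of the NCD library (left) and the HFHC pool (right), as CPM on a logarithmic colour scale, with grey for 0 UMIs. The columns of cDC1s, cDC2s, the Gzmk-led cluster, T, NK and plasma cells are bright for mitotic members, while Pcna is bright in every column.

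In list-positive cells the balance of S-phase and mitotic UMIs differed between cell types. In KCs of the NCD library 60.4% of the list UMIs of positive cells were of S-phase members (473 S-phase and 310 mitotic UMIs, 56.9 to 63.9%), and in the HFHC pool 35.2% (86 and 158 UMIs, 29.3 to 41.6%). Without thinning, where many more KCs are positive, it was 67.4% and 55.8%. T cells had 42% and 48.4%, cDC1s 33.7% and 40.4%, and NK cells 36.8% and 46.6%. Endothelial cells had 54.8% and 39.7%, cDC2s 39.4% and 28.7%, and B cells 60.9% and 53.2%. The S-phase share was thus lower in the pool for KCs, endothelial cells and cDC2s, and higher for T cells, NK cells and cDC1s, while the intervals of B cells and of cDC1s overlap. For cDC1s the order turned without the limit of 4000 genes described below, at 33.6% (NCD) and 27.7% (pool). The UMIs of 1 cell are not independent, so that the intervals are narrower than the spread of cells, and in KCs of the HFHC pool they come from 23 cells.

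By the kinds of UMIs found in a cell, the positive KCs of both libraries were alike but for few cells with mitotic UMIs alone. Of 120 positive KCs in the NCD library, 47 (39.2%) had S-phase UMIs alone, 4 (3.33%) mitotic UMIs alone and 69 (57.5%) both. Of 23 in the HFHC pool, 8 had S-phase UMIs alone, 3 mitotic alone and 12 both. At least 3 mitotic UMIs were found in 25 of 2335 NCD KCs (1.07%, 0.694 to 1.58%) and in 13 of 403 KCs of the pool (3.23%, 1.73 to 5.45%). The intervals count cells of 1 library each and are no test between diets. At least 3 S-phase UMIs were found in 3.51% and 3.72%. For at least 3 mitotic UMIs in T cells deep enough to be thinned, the order of the libraries was the opposite. The NCD library had 7.96% (95 of 1194, 6.48 to 9.64%) and the pool 3.92% (60 of 1531, 3.0 to 5.02%). These deep cells were 42.2% of NCD but 88.1% of pool T cells. List-positive T cells had higher median depths than zero cells, at 3167 and 2535 UMIs (NCD) and 3775.5 and 3534 (pool). Leaving out shallow cells may thus raise the NCD share more, and its part in this order was not tested. For hepatocytes the share with at least 3 mitotic UMIs was 0.337% and 0.770%, and for pDCs 0.155% and 0.386%.

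S-phase and mitotic transcripts met in the same cells. Of the 25 NCD KCs with at least 3 mitotic UMIs, 21 (84.0%) also had an S-phase UMI, against 750 of 2087 (35.9%) of those with none. In the HFHC pool these shares were 10 of 13 (76.9%) and 35.4%. In NCD T cells 90 of 95 (94.7%) with at least 3 mitotic UMIs had an S-phase UMI, against 57.8% of those with none, and in the pool 52 of 60 (86.7%) against 53.4%. Among cDC1s of the NCD library the shares were 34 of 43 (79.1%) and 38.4%. A UMI of an S-phase member alone was common, as 565 NCD KCs had exactly 1 and no mitotic UMI.

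In the NCD library list-positive cells held a larger part of the list UMIs in cDC1s and T cells than in KCs. KCs and T cells of the pool were more alike. This part also rises with the number of positive cells, which were 30.9% of NCD cDC1s, 18.2% of T cells and 5.14% of KCs. It therefore does not measure in how few cells the UMIs lie. List-positive cells held 92.4% of the list UMIs of thinned NCD cDC1s, 82.5% of those of T cells and 41.9% of those of KCs. In the pool they held 82.7% in cDC1s, 66.3% in T cells, 57.0% in KCs and 52.5% in B cells. Cells with at least 10 UMIs of the list were 39 cDC1s (17%), 91 T cells (7.62%) and 20 KCs (0.857%) in the NCD library. In the HFHC pool they were 9 cDC1s (6.43%), 37 T cells (2.42%) and 10 KCs (2.48%). Such cells held 45.3% of the list UMIs of pool KCs and 41.2% of those of pool T cells. The highest cell, an NCD T cell, had 66 of its 2000 UMIs from the list. Scrublet called 3.33% of positive and 7.03% of zero KCs doublets in the NCD library, and 3.23% and 12.0% of T cells. In NCD endothelial cells it called 22.6% of the 84 positive and 20.5% of the zero cells, in NCD B cells 26.7% of 15 and 27.9%, and in NCD hepatocytes 60% of 5 and 10.04%.

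**Figure D3:**
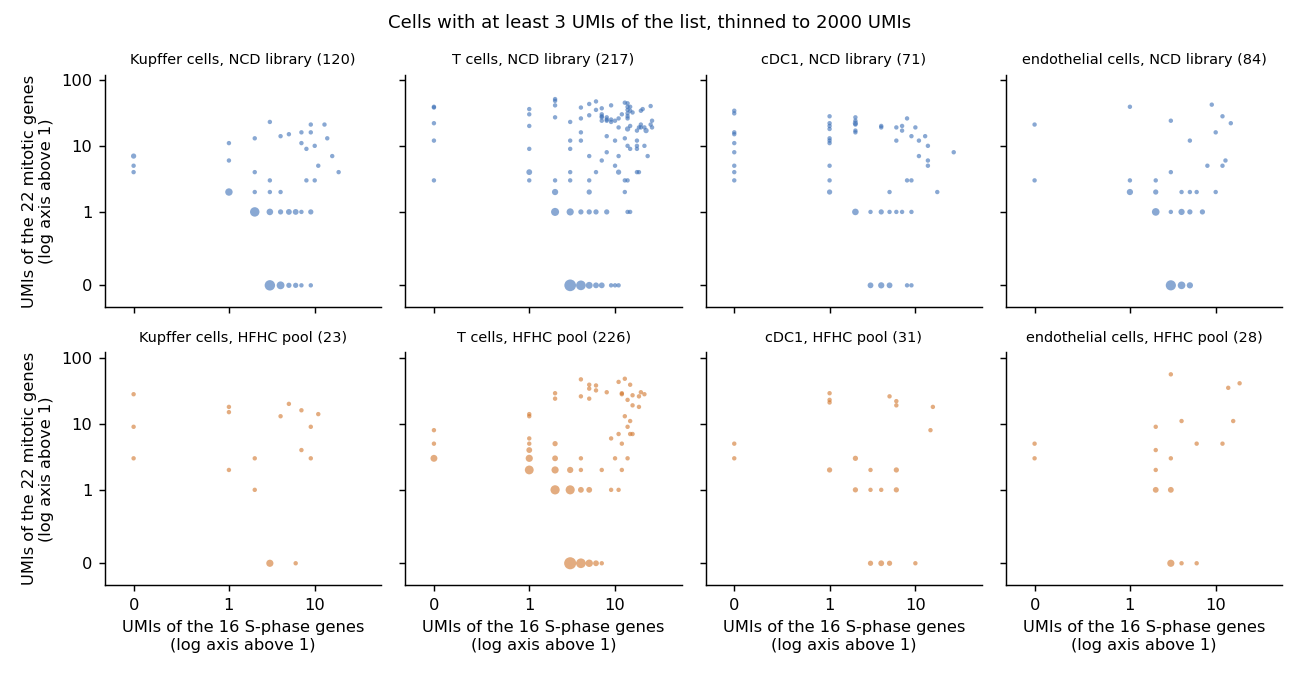
UMIs of the 16 S-phase genes (x axis) against UMIs of the 22 mitotic genes (y axis) in list-positive KCs, T cells, cDC1s and endothelial cells of the NCD library (top, blue) and the HFHC pool (bottom, orange), thinned to 2000 UMIs. Axes are linear to 1 and logarithmic above, larger points stand for more cells, and the number of positive cells is in each title; in NCD KCs 47 of 120 cells lie on the line of 0 mitotic UMIs and 8 of 23 do in the pool.

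The limit of 4000 genes removed KCs of 1 library above all. Cells were clustered again without it, and 552 of 1021 KCs (54.1%) in the HFHC pool had more than 4000 genes, against 30 of 3086 (0.972%) in the NCD library. For T cells it was 15 of 2652 and 8 of 2992, for cDC1s 25 of 168 and 3 of 238, and for endothelial cells 57 of 713 and 0. The large KCs of the pool held 76.7% of its KC UMIs. They were list-positive in 46 of 552 cells (8.33%, 6.17 to 11.0%) at 2000 UMIs, and the large NCD KCs in 9 of 30. Among these cells every one of 8 NCD and 15 pool T cells was positive, and 21 of 25 pool cDC1s (84.0%) were.

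Within the limit, shares were higher in cells with more genes for T cells and cDC1s although every cell was thinned to the same depth. T cells of the NCD library were positive in 14.1% of cells with up to 2000 genes, 67.9% with over 2000 to 3000 and 95% with over 3000 to 4000, and those of the HFHC pool in 14.1%, 20.7% and 63.8%. NCD cDC1s had 13.9%, 28.0% and 79.4%. KCs of the NCD library went from 4.06% over 4.94% to 7.89%. KCs of the pool did not follow this order, with 10 of 70 (14.3%) up to 2000 genes, 5 of 115 (4.35%) and 6 of 210 (2.86%) above it, then 8.33% over 4000. Scrublet called 1.81% of the large pool KCs doublets, beside 6.67% to 13% of the smaller ones.

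Without the limit the KC share was 5.35% and 7.07%, that of T cells 19.2% and 16.7%, and that of cDC1s 31.2% and 31.7%. The limit thus held the cDC1 share of the pool at 22.1%, below that of the NCD library, and without it both were alike. T cells without the limit also hold the Gzmk-led cluster, which was not separate in that clustering. S-phase shares were lower in large positive cells of KCs, T cells and cDC1s than in the smaller ones, with overlapping intervals for KCs of the pool and for NCD T cells and cDC1s. S-phase members made up 28.9% of list UMIs in the large positive KCs of the pool (198 S-phase and 487 mitotic UMIs), 20.2% in its large cDC1s and 25.7% in its large T cells, and 45.5% in the large NCD KCs. In positive cells with up to 4000 genes of the same clustering they made up 34.5%, 40.4%, 50.6% and 60.3% in this order. Large endothelial cells of the pool went the other way, with 47.7% against 40.4%, from 6 large cells.

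**Figure D4:**
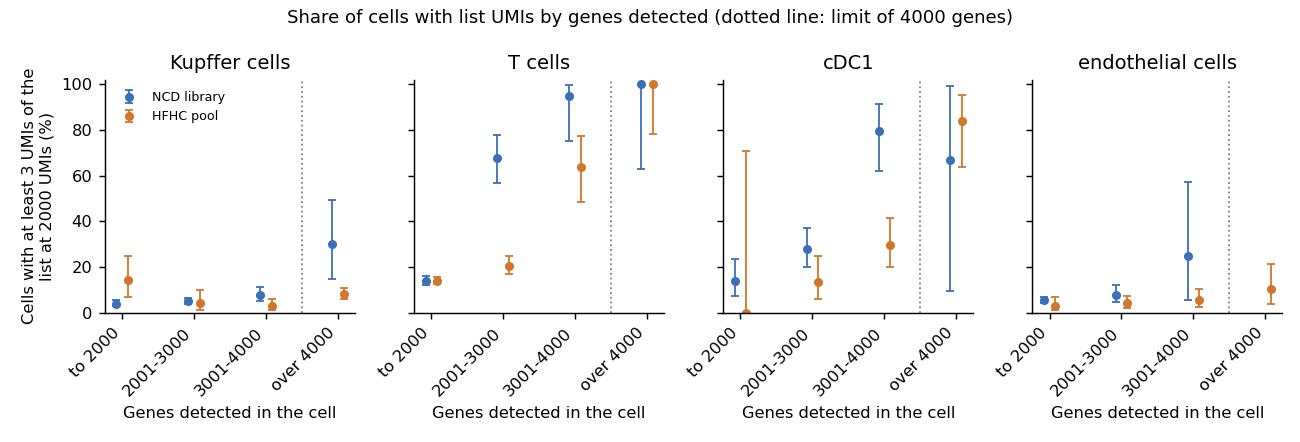
Share of list-positive cells (percent, y axis) by the number of genes detected in the cell (x axis) for KCs, T cells, cDC1s and endothelial cells, thinned to 2000 UMIs, in the NCD library (blue) and the HFHC pool (orange) with exact binomial 95% intervals. The dotted line is the limit of 4000 genes; T cells go from 14.1% to 100% in both libraries, and KCs of the pool from 14.3% to 2.86% and then to 8.33% above the limit.

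Levels in KCs within the limit were mixed for the mitotic members tested and lower in the pool for the S-phase members tested. Summed over all 22 mitotic members, NCD KCs had 123 CPM (117 to 128) and pool KCs 158 CPM (146 to 170). The 16 S-phase members together had 308 CPM (299 to 317) and 223 CPM (209 to 238). A log2 ratio of CPM, HFHC pool over NCD library, was computed for members with at least 100 UMIs over both libraries, which 19 of 38 had in KCs. A member can pass this minimum through the library in which it is high, and then had to differ. Members that would also reach 100 UMIs at the level of their lower library are therefore counted apart, and the counts and medians of members tested are descriptions. Members are read in the same cells and are not independent of each other. In KCs 15 of the 19 would, of which 13 were lower in the pool. The median over the 19 was -0.50, beside 0.01 over 9200 genes, of which 48.7% were lower. Of the 7 mitotic members tested, 4 were higher in the pool and 3 lower, and of the 5 that would reach the minimum at their lower level 2 were higher and 3 lower. Birc5 and Cenpe passed it only through the pool. Ube2c had 5.95 CPM (87 UMIs) in the NCD library and 15.2 CPM (63 UMIs) in the pool, a log2 ratio of 1.36, and Birc5 4.58 and 9.42 CPM, a ratio of 1.05. Mki67 had 17.3 and 31.7 CPM (0.88) and Cenpe 5.06 and 8.94 CPM (0.84). Top2a had 17.1 and 8.22 CPM (-1.02), Cdk1 had a ratio of -0.39 and Stmn1 of -0.22.

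All 12 S-phase members tested were lower in KCs of the pool, with a median of -0.53, and 10 of them would reach the minimum at the level of the pool. Uhrf1 had 107 UMIs (7.32 CPM) in the NCD library and 6 UMIs (1.45 CPM) in the pool, a log2 ratio of -2.13, and passed the minimum only through the NCD library. Mcm6 had 22.8 and 8.94 CPM (-1.32) and Mcm3 33.3 and 15 CPM (-1.13), while Pcna, at 123 and 113 CPM, had the smallest difference (-0.13). Past 2-fold, 2 members were higher and 4 lower in the pool, where 5.12% of 9200 genes were past 2-fold higher and 3.21% lower. Among the 15 that would reach the minimum at their lower level, 1 was higher and 3 lower past 2-fold. With a minimum of 20 UMIs in place of 100, the median over the members was -0.09.

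Without the limit all mitotic members were higher in KCs of the pool. All 22 had at least 100 UMIs and 21 were past 2-fold higher. At the NCD level 14 of the 22 would reach the minimum, and 13 of these were past 2-fold higher, where 5.13% of 10166 genes were past 2-fold higher and 3.74% lower. Cdc20 had 17 UMIs (1.11 CPM) in the NCD library and 126 UMIs (7.33 CPM) in the pool, a log2 ratio of 2.65. Ccnb1 had 1.96 and 9.94 CPM (2.31) and Hmmr 2.48 and 12.5 CPM (2.31), and these 3 genes passed the minimum only through the pool. Of members that would reach it at the NCD level, Ube2c had 9.39 and 39.8 CPM (2.08) and Mki67 22.9 and 72.1 CPM (1.65). Top2a, lower in the pool with the limit, had 23.5 and 66.4 CPM without it (1.49). Cdk1 had the smallest ratio of the mitotic members, 0.60.

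The S-phase members were divided. Of 15 tested, 6 were higher and 9 lower without the limit, with a median of -0.19. Pclaf (14.0 and 35.5 CPM, 1.34) and Rrm2 (7.63 and 16.6 CPM, 1.12) were past 2-fold higher, and Mcm3 (34.9 and 22.4 CPM, -0.64) was the lowest. The 19 members that were tested with the limit had a median of 0.20 without it, against -0.50 with it, so that the change is not only one of which members passed 100 UMIs. Split at the limit, the list had 990 CPM in the large KCs of the pool and 381 in the others, against 507 in all NCD KCs of this clustering. The large KCs had 1110 of the 1141 Top2a UMIs of pool KCs and 1111 of the 1240 Mki67 UMIs.

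**Figure D5:**
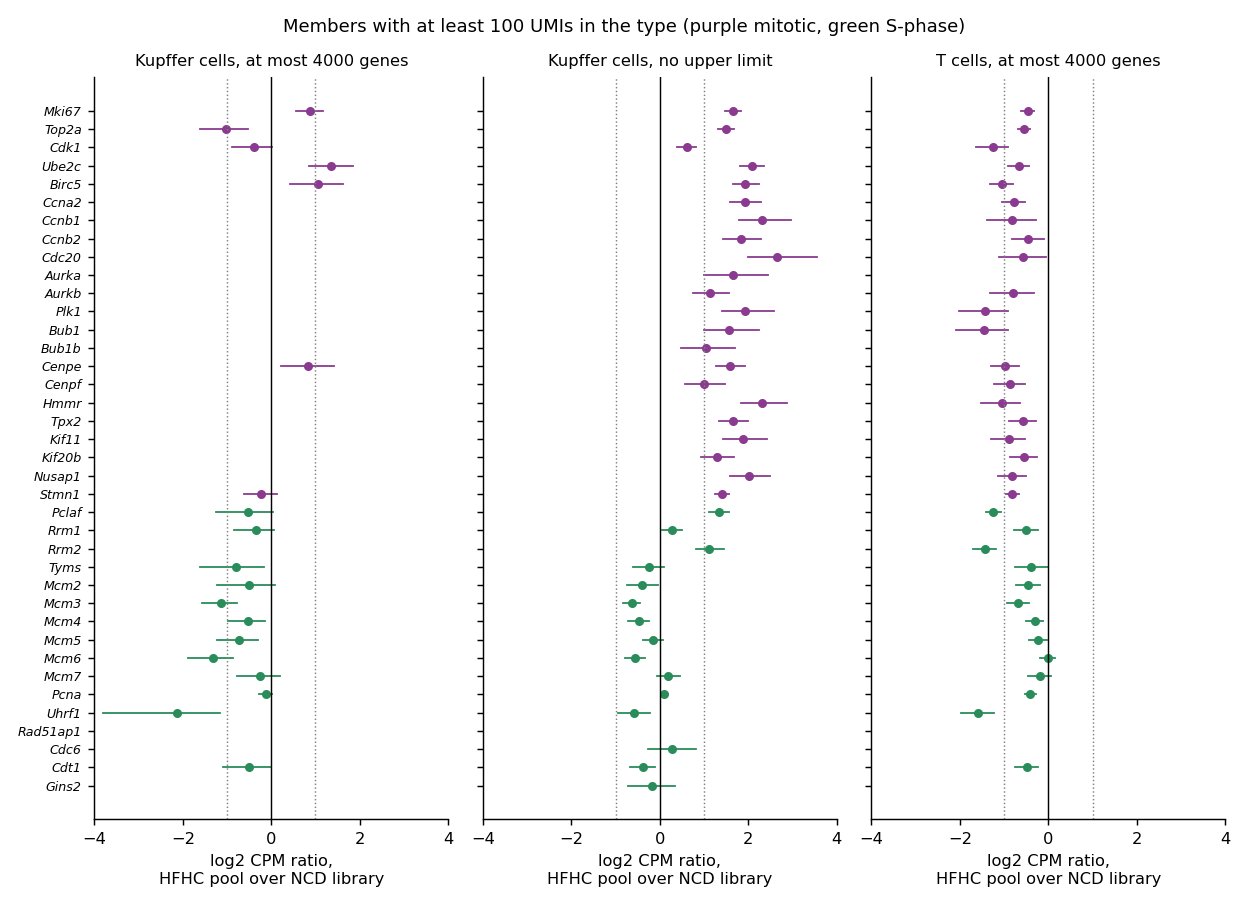
Log2 ratio of CPM, HFHC pool over NCD library (x axis), for members with at least 100 UMIs in KCs with at most 4000 genes (left), KCs without the limit (middle) and T cells with at most 4000 genes (right). Points are ratios and bars counting intervals, purple for mitotic and green for S-phase members, with dotted lines at 2-fold; the 22 mitotic members all lie right of 0 in the middle panel, and the 33 members of the right panel all lie left of it.

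In T cells all 33 members tested were lower in the HFHC pool, with a median of -0.68 beside 0.05 over 8726 genes, of which 45.5% were lower. At the level of the pool 30 of the 33 would reach the minimum. Uhrf1 had 41.7 and 13.7 CPM (-1.59), Bub1 15.7 and 5.59 CPM (-1.47), Plk1 17.6 and 6.39 CPM (-1.44) and Rrm2 74.8 and 27.7 CPM (-1.43), while Mcm6, at 93.7 and 92.7 CPM, hardly differed (-0.02). Past 2-fold, 8 were lower and 0 higher, where 2.78% of genes were past 2-fold lower and 5.54% higher. Bub1 and Plk1 passed the minimum only through the NCD library, and 6 of the 30 that would reach it at the level of the pool were past 2-fold lower. Without the limit 37 members were tested with a median of -0.43, beside 0.04 over 9372 genes, and their ratios went from -1.54 to 0.12. The 15 large T cells of the pool held 2.92% of its T cell UMIs and 14672 CPM of the list. 

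The T cells of both libraries lay in the same clusters in different proportions. The NCD library had 2207 T cells in a cluster led by Cxcr6 and genes of the gamma T cell receptor and 623 in one led by Foxp3, the factor of regulatory T cells, and Tcf7, while the pool had 702 and 1035. Within the Cxcr6-led cluster 26 of 28 members tested were lower in the pool, where 47.2% of 7314 genes were, with a median of -1.19 beside 0.03 over all genes. Within the Foxp3-led cluster 24 of 27 were lower, where 41.4% of 6462 genes were, with a median of -0.67 beside 0.09. With the Gzmk-led cluster counted as T cells the median was -0.81. These 3 settings, and the leaving out of mixed clusters given next, were added after the values were seen. In them, members that passed the minimum only through the library in which they were high were not counted apart. Such members had to differ, so that these counts and medians are descriptions.

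The T cell difference depended on which cells were counted. With cell cycle genes kept in the clustering, 79 of 217 positive NCD T cells and 37 of 226 from the pool lay in mixed clusters, which hold markers of several types and are left out, and 882 pool and 146 NCD cells of the Gzmk-led cluster joined the T cells. The median over 15 members was then -0.066. Leaving out the cells of mixed clusters alone, which took the T cells from 2830 to 2742 in the NCD library and from 1737 to 1699 in the pool, brought the median to -0.062 over 13 members, beside 0.05 over all genes. Of the 13, 8 were lower and 5 higher, where 44.8% of 8514 genes were lower. The shares of positive T cells were then 12.4% and 12.7%. These cells were set apart with the cell cycle genes themselves, and fewer members were tested. The values of this setting are therefore descriptions, and what the choice of cells adds to them was not tested.

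Other cell types differed in direction. In cDC1s 25 members were tested and all were lower in the pool, where 40.9% of 4346 genes were, with a median of -1.08 beside 0.10 over all genes. This median includes 11 members that passed the minimum only through the NCD library, among them Kif20b, the lowest at -1.98. The 14 that would reach it at the level of the pool went from -1.77 for Pclaf to -0.14 for Mcm4. Without the limit 32 cDC1 members were tested with a median of 0.20, near the 0.12 over all genes, and Mki67 had 239 and 437 CPM (0.87). In cDC2s all 17 tested were lower (median -0.77), where 44.8% of genes were, and 9 of them would reach the minimum at the level of the pool. In the Gzmk-led cluster all 20 were lower (median -0.77), where 45.4% of genes were, and 18 would reach it. NK cells lay near 0 with a median of -0.20 over 18 members.

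In B cells the direction was the opposite, with 12 of 13 members higher in the pool, where 51.8% of genes were, and a median of 0.57 beside 0.02 over all genes. Mki67 had 18.6 CPM (36 UMIs) and 78.2 CPM (200 UMIs), a log2 ratio of 2.04, Top2a 19.7 and 48.1 CPM (1.26) and Mcm5 24.9 and 52.4 CPM (1.06). Cdt1 was the member that was lower (-0.39). Mki67 and Top2a passed the minimum only through the pool. Thus 3 members were past 2-fold higher and 0 lower, where 3.92% and 2.04% of genes were, and of the 10 members that would reach the minimum at their lower level 9 were higher and 1 past 2-fold. In endothelial cells 9 of 14 members were higher, where 48.1% of genes were, with a median of 0.06, and Mcm2 (19.96 and 7.86 CPM, -1.31) was past 2-fold lower, where 9.53% of genes were past 2-fold higher and 4.98% lower. Mcm2 passed the minimum only through the NCD library, and of the 11 members that would reach it at their lower level 7 were higher and 4 lower, none past 2-fold. Without the limit, which added 57 large endothelial cells of the pool, the median was 0.35 over 17 members, beside -0.03 over all genes, and 0.69 over the 6 mitotic ones. Mki67 then had 12.9 (NCD) and 29.9 CPM (pool), a ratio of 1.21, and Top2a 17.4 and 45.8 CPM (1.39). All 10 hepatocyte members tested were higher in the pool, where 59.3% of genes were, with a median of 0.62 beside 0.14 over all genes, at levels of at most 41.9 CPM. At the NCD level 7 of the 10 would reach the minimum. Hepatocytes of the libraries lay in different clusters, and the one that held 2623 of 3691 NCD hepatocytes held 783 of the 8925 of the pool.

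Genes outside the list, which did not choose the cells, were mostly higher in list-positive cells too. Their lists, like the members, were chosen with earlier results of these data known. Whole counts of list-positive cells were compared with those of zero cells of the same type and library, for other S-phase and mitotic genes with at least 100 UMIs. A gene that passed this minimum only through the positive cells had to be higher there, so that genes that would also reach it at the level of zero cells are counted apart. In NCD KCs all 10 other S-phase genes tested were past 2-fold higher in positive cells, where 1.97% of 7430 genes were. DNA ligase 1 (Lig1) had 168 CPM in positive and 27.3 in zero KCs, a log2 ratio of 2.63. All 10 would reach the minimum at the level of zero cells. Values were alike for thymidine kinase Tk1 with 171 and 29.9 CPM (2.52), and for the flap endonuclease Fen1 with 66.4 and 11.7 CPM (2.51). Of 15 other mitotic genes 9 were past 2-fold, and 8 of the 14 that would reach the minimum in zero cells. Lamin B1 (Lmnb1, 2.93) passed it only through the positive cells. Of the others Cks1b, which binds cyclin-dependent kinases, had the highest ratio (2.38), while Pttg1, the securin, was level (-0.06) and Bub3 had 0.33. In KCs of the pool 3 of 6 other mitotic genes were past 2-fold, where 2.19% of genes were, and 2 of the 5 that would reach the minimum in zero cells, Hmgb2 (2.07) and Smc4 (2.04).

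In T cells most of these genes tested were also higher in positive cells. In the NCD library 11 of 11 other S-phase genes and 26 of 27 other mitotic genes were past 2-fold, where 5.01% of 3553 genes were. Most had passed the minimum through the positive cells, since 2 and 7 of them would reach it in zero cells, of which 2 and 6 were past 2-fold. Prc1, which bundles the central spindle, had 173 UMIs in 217 positive cells and 0 in 417 zero cells, Cdca8 155 and 0, and Kif15 125 and 1, and these 3 are among the genes that passed only so. Pttg1 was again level, with 96.8 and 97.1 CPM. In the HFHC pool 7 of 10 and 14 of 17 were past 2-fold, where 1.93% of genes were, and 3 of 6 and 9 of 12 among those that would reach the minimum. In NCD cDC1s all 13 other mitotic genes were past 2-fold, where 5.83% of genes were, but 2 of them, Smc4 and Hmgb2, would reach the minimum in zero cells.

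The large KCs of the pool had the most such genes tested. Against 323 large zero KCs, the 46 positive ones were past 2-fold higher for 12 of 12 other S-phase and 36 of 37 other mitotic genes, where 4.96% of 7555 genes were. Of these 12 and 37 genes, 8 and 13 would reach the minimum in zero cells, of which 8 and 12 were past 2-fold. Among these, Kif23, a kinesin of cell division, had 285 CPM in positive and 17.8 in zero cells (3.99) and the condensin subunit Smc4 596 and 60.9 CPM (3.29). Cdca3 had 119 UMIs in positive and 1 in zero cells, Ckap2 115 and 1, and the kinetochore scaffold Knl1 106 and 1, and these 3 passed the minimum only through the positive cells. Pttg1 was the exception (-0.01). Of 11 inhibitors of cycling tested there, 7 were higher and 3 past 2-fold, with a median of 0.54, and of the 9 that would reach the minimum at their lower level 5 were higher and 1 past 2-fold. Cdkn2c, which passed it only through the positive cells, had 88.0 and 3.30 CPM (4.69) and Cdkn1a, the p21 inhibitor, 196 and 49.4 CPM (1.99), while Btg2 (-0.53) and Klf2 (-0.55) were lower.

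Genes of G1 differed less. In NCD KCs 2 of 10 cyclins and kinases of G1 were past 2-fold higher, E2f1 (1.28) and Cdk2 (1.11), where 1.97% of 7430 genes were. Inhibitors of cycling had 0 of 9 past 2-fold, which is near the share of all genes. Their median was -0.53 beside 0.05 over all genes, with Tob1 at -0.97, Btg2 at -0.73 and Trp53 at 0.67. In NCD T cells Btg1 (600.8 CPM in zero and 290 in positive cells, -1.05) and Ccnd2 (-0.78) were lower, and Cdkn2c, which passed the minimum only through the positive cells, was higher (13.2 and 91.4 CPM, 2.71).

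Positive KCs carried KC markers at levels near those of zero KCs. Summed over 12 KC markers, NCD KCs had 24259 CPM in positive and 25963 in zero cells, and those of the pool 17727 and 19969. In the large KCs of the pool 11 of 12 markers were lower in positive cells, none past 2-fold, with Clec4f at 3487 and 4896 CPM and Timd4 at 661 and 978. MoMF markers were at 538 and 595 CPM in positive and zero NCD KCs and at 1801 and 1013 in those of the pool, T cell markers at 44.7 and 31.6 and at 6.06 and 41.4, and B cell markers at 37.0 and 37.5 and at 54.6 and 93.8. Hepatocyte markers had 1060 and 1255 CPM in positive and zero NCD KCs and 594 and 1530 CPM in NCD T cells, whereas they were higher in positive cells among the large KCs of the pool (970 and 851 CPM) and NCD endothelial cells (2442 and 1931 CPM). Positive NCD endothelial cells also had more NK cell markers (147 and 18.8 CPM, 2.97) and T cell markers (337 and 183 CPM, 0.89) than zero cells. At least 3 markers of another lineage were found in 67.5% of positive and 63.5% of zero NCD KCs, and in 43.5% and 66.1% of those of the pool. Their part in these results was not tested.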

How the data were processed

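Single-cell counts of 2 mouse liver libraries were used. The deposited counts are UMIs per gene and cell after error correction, made by the authors with the BD Rhapsody WTA Analysis Pipeline 1.10.1 on GRCm38 per the file headers. Cells with 200 to 4000 genes and at most 25% mitochondrial UMIs were kept. SCTransform (sctransform 0.4.2) was run on 4000 genes of each library, followed by integration with reciprocal PCA in Seurat 5.3.0 (R 4.3.3) with 30 components, 20 neighbours and a resolution of 0.8, with 204 listed cell cycle genes left out. Monocyte and macrophage clusters were clustered again at 0.5. Thresholds for naming were chosen with the clusters in view, and 5 mixed and 6 unnamed of 41 clusters were left out of the named types, except that the Gzmk-led cluster is reported on its own. Cells were thinned to 2000 UMIs without replacement (seed 42). Shares have exact Clopper-Pearson and sums exact Poisson 95% intervals. Ratios add 1 UMI and need 100 UMIs over both groups. Doublets were called with Scrublet in scanpy 1.11.5 and kept. The scripts were tested on simulated data.

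The members and all gene lists were chosen with earlier results of these data known. All 38 members are named, and of the other lists the 3 highest and 3 lowest genes of a comparison, except where a gene is chosen for its role. The sample-tag library, which is the other sample of the series, was not used here. PCR duplicates were collapsed by UMI in the authors' pipeline, so that intervals cover the counting of molecules only. The alternatives were no thinning, thinning to 1000 UMIs, other UMI minimums, a mitochondrial limit of 10%, no limit on genes, the list without Stmn1 and Pcna, removal of doublets, cell cycle genes kept in the clustering, classes from each cell's own markers, and scaling by the median ratio of all genes.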

Additional observations from a re-analysis of the deposited data

How the results depend on the processing

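No paired analysis was possible because each condition has 1 library. The KC share of list-positive cells (NCD 5.14%, HFHC pool 5.71%) was 20.6% and 37.5% with no thinning, 1.87% and 3.04% at 1000 UMIs, 14.0% and 14.1% with at least 2 UMIs, and 1.84% and 3.23% with at least 5. For NCD KCs it was also 3.94% with UMIs of at least 3 different members and 3.21% without Stmn1 and Pcna. The T cell shares, 18.2% and 14.8%, were 14.0% and 30.2% with no thinning, 7.45% and 5.32% at 1000 UMIs, 33.2% and 30.6% with at least 2 UMIs, 10.1% and 4.83% with at least 5, 15.2% and 9.73% with 3 different members, and 14.2% and 10.2% without Stmn1 and Pcna. T cells of the pool had 16.7% without the limit of 4000 genes, and those of the NCD library 12.6% with cell cycle genes kept in the clustering. The minimums and depths move the threshold of a call by construction, and the order of T cells above KCs held in all but no thinning.

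The S-phase share of KC list UMIs was 67.4% and 55.8% with no thinning, and 28.3% in the pool without Stmn1 and Pcna. T cells had 38.8% and 44.1% without both genes. The median ratio of the members in KCs went from -0.50 to 1.29 without the limit of genes, where 37 members in place of 19 were tested and the large cells of the pool entered, and to -0.092 with at least 20 UMIs. In T cells it was -0.43 without the limit, -0.066 with cell cycle genes kept in the clustering and -1.19 in the Cxcr6-led cluster alone. Leaving out the T cells of mixed clusters, which were set apart with the cell cycle genes kept, gave -0.062 and shares of 12.4% and 12.7%. Each T cell cluster alone, the leaving out of mixed clusters and the Gzmk-led cluster counted as T cells were chosen after seeing the data. Members that passed the minimum only through their higher library were not counted apart there. Plasma cells and the Gzmk-led cluster had no class of their own with cell cycle genes kept in the clustering and give no value there. Of the types with at least 100 cells in each library, cDC1s had the highest share under every alternative but at least 2 UMIs, where the Gzmk-led cluster stood first. Plasma cells of the pool, which were fewer, stood above cDC1s at 1000 UMIs (11.4% and 10.4%), with a mitochondrial limit of 10% (22.5% and 22.1%) and without doublets (22.8% and 22.3%). Among the shares of the other 15 types under these alternatives, 197 stayed within their main interval and 123 did not. Depth limits hepatocytes, of which 8.05% (NCD) and 23.3% (pool) reached 2000 UMIs, and NCD neutrophils (2.96%), B cells (10.8%), NK cells (34%) and T cells (42.2%). MoMFs, stellate cells and cholangiocytes are limited by their number.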
